A study of Mus musculus with 9 samples.

Results

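The LILR, Fc gamma and Trem2 receptors are 10 genes for immune receptors of the myeloid surface and the adaptors they signal through: Lilrb4a, Lilr4b, Fcgr1, Fcgr2b, Fcgr3, Fcgr4, Fcer1g, Trem2, Tyrobp and Sirpa. They were taken by symbol from the deposited count table, where all 10 were found among 55450 gene identifiers. RNA was measured in IMM, a line of immortalized mouse macrophages of WT genotype, grown in a serum-containing medium. Lipopolysaccharide (LPS), a cell wall component of Gram-negative bacteria, was given at 100 ng/mL. The groups were 0 min (the control, with treatment labelled none), 30 min and 60 min of LPS, with 3 libraries each and 9 in all. All groups share the line, the genotype and the medium, and no library without LPS was taken at 30 or 60 min, so LPS, time and handling cannot be told apart. The design text calls the libraries of a time biological replicates. Nothing says whether they came from separate cultures, so the p-values measure the spread between these libraries, which may be technical.

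These receptors work as opposing sets. Activating receptors such as Fcgr1, Fcgr3, Fcgr4 and Trem2 have no signalling motif of their own and pair with the small adaptors Fcer1g (the Fc receptor gamma chain) or Tyrobp (DAP12), whose tyrosine motifs (ITAMs) recruit the kinase Syk. Inhibitory receptors such as Lilrb4a, Fcgr2b and Sirpa carry inhibitory tyrosine motifs (ITIMs), which recruit phosphatases and raise the threshold for activation. In macrophages the balance of both sets governs uptake of antibody-coated particles, of dying cells and of lipid debris.

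Lilrb4a (chr10:51490956-51496611, plus strand, build GRCm38) and Lilr4b (chr10:51480632-51486703, plus strand) are neighbouring near copies. Their longest coding sequences have 1005 and 909 bases, and 871 of 907 aligned bases (96.0%) are the same. The stretches that follow are shown because they set how well a read can be given to one or the other gene. In coding bases 302 to 391, counted from the A of the start codon, the genes do not differ:
Lilrb4a: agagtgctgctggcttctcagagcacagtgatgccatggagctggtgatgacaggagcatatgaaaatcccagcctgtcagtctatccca
Lilr4b: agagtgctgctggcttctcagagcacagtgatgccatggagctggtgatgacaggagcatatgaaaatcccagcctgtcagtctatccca
In the stretch just before it, coding bases 212 to 301, the least alike window of that length found, 11 of 90 bases differ, in capitals:
Lilrb4a: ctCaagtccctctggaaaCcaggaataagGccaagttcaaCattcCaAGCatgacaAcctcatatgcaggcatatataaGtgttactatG
Lilr4b: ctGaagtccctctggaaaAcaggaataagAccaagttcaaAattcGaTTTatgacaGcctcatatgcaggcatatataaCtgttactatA

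The inhibitory Fcgr2b (chr1:170958617-170976547, minus strand) and the activating Fcgr3 (chr1:171051174-171064935, minus strand) are also alike in sequence. Of 754 aligned bases of their whole coding sequences, 665 (88.2%) are the same. A stretch of 90 bases, at coding bases 278 to 367 of Fcgr2b and 263 to 352 of Fcgr3, does not differ:
Fcgr2b: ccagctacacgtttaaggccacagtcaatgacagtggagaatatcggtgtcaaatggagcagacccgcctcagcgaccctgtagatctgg
Fcgr3: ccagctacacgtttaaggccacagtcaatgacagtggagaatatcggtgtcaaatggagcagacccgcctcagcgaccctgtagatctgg
Windows with gaps were left out, so parts of the alignment that differ more are not shown. The least alike window of 90 bases without gaps lies at coding bases 126 to 215 of Fcgr2b and 111 to 200 of Fcgr3. There 8 of 90 bases differ, in capitals:
Fcgr2b: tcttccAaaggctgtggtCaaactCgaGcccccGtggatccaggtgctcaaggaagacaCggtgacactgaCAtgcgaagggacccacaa
Fcgr3: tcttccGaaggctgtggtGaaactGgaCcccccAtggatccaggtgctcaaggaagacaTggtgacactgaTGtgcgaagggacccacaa

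The counts were estimated by the authors with RSEM, a tool that shares a read among the genes it matches. Of the 50-base stretches in the transcripts of Lilrb4a, 46.7% also occur in another gene, against 24.5% for Lilr4b, 9.58% for Fcgr3, 4.38% for Fcgr2b and 0 for the other 6 genes. The counts of the other 6 genes were whole numbers, within 0.02 counts, in 9 of 9 libraries. Those of Lilrb4a, Lilr4b, Fcgr2b and Fcgr3 were whole in 0 of 9. The sum of Fcgr2b and Fcgr3 was whole in 9 of 9 libraries. The sum of Lilrb4a and Lilr4b was whole in 0 of 9, and in 9 of 9 once Gm49339 was added. Gm49339 (chr10:51480612-51496613, plus strand) is an annotated protein-coding gene that spans both. The values of these 4 genes are therefore estimates of a split, and their sums are given beside them.

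At 60 min against 0 min, the LILR pair rose several-fold, Fcgr2b and Sirpa rose slightly, Trem2 and Fcgr1 fell, and Fcgr3, Fcgr4, Fcer1g and Tyrobp did not pass the test. All 10 genes passed the filter on low counts. Calls rest on the quasi-likelihood test of edgeR over 14246 genes, at a Benjamini-Hochberg adjusted p under 0.05. Of the 10 genes, 4 were called higher at 60 min against 0 min, where 13.3% of all genes tested were, and 2 were called lower, where 11.7% were. At 30 min against 0 min, 2 were called higher (the LILR pair), with 4.84% of all genes tested, and 1 was called lower (Trem2), with 3.35%. At 60 min against 30 min, 3 were called higher (Lilrb4a, Lilr4b and Sirpa), with 8.87% of all genes tested, and 2 were called lower (Fcgr1 and Trem2), with 7.65%. The median log2 change of the 10 genes at 60 min against 0 min was 0.06, and that of all genes tested was 0.00. The 10 genes had no common direction.

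**Figure D1:**
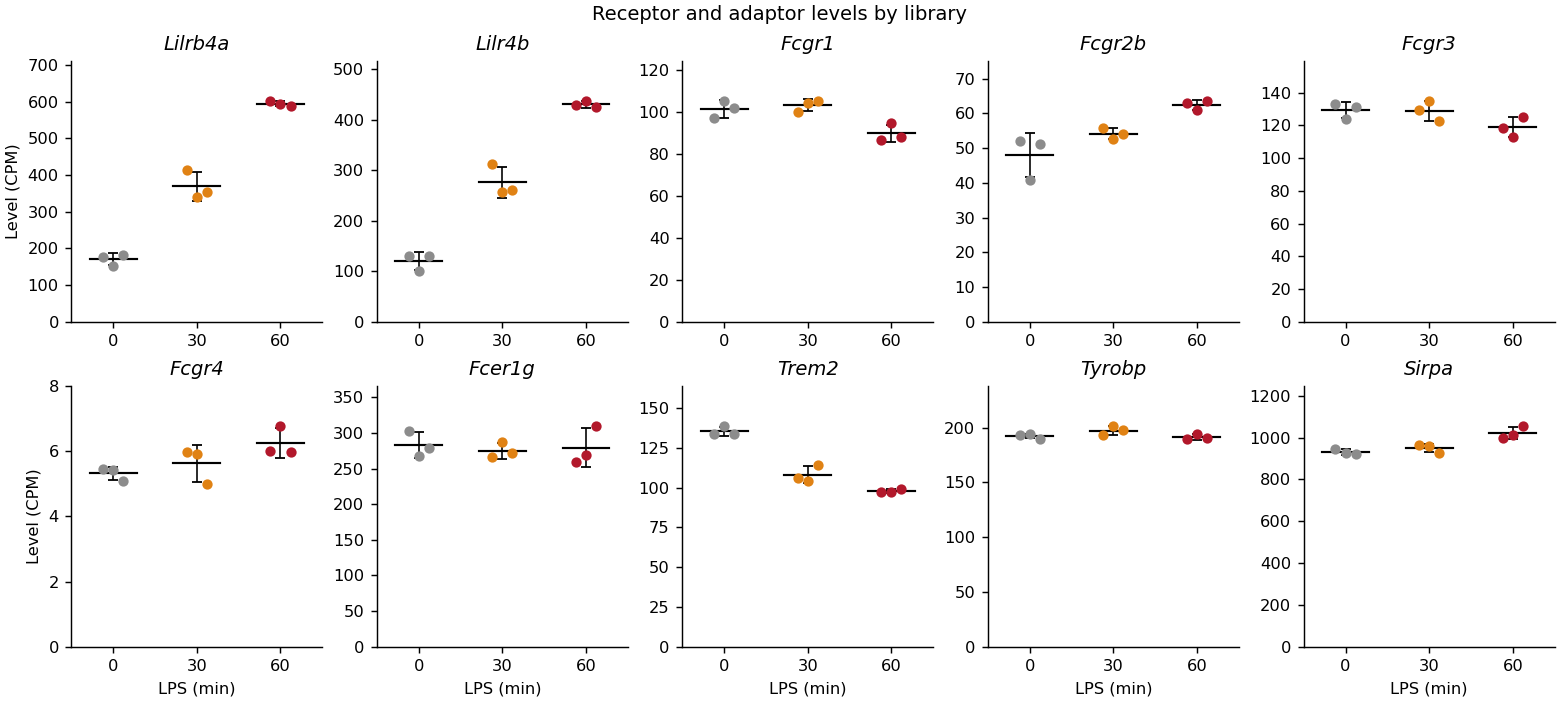
Level of each of the 10 genes in each of the 9 libraries, as CPM (counts per 1000000) on an axis from 0, at 0, 30 and 60 min of LPS, with 1 point per library, a line at the mean of each time and whiskers of 1 SD. Lilrb4a and Lilr4b climb at both steps, Trem2 falls at both, and the points of Fcer1g at the 3 times overlap.

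**Figure D2:**
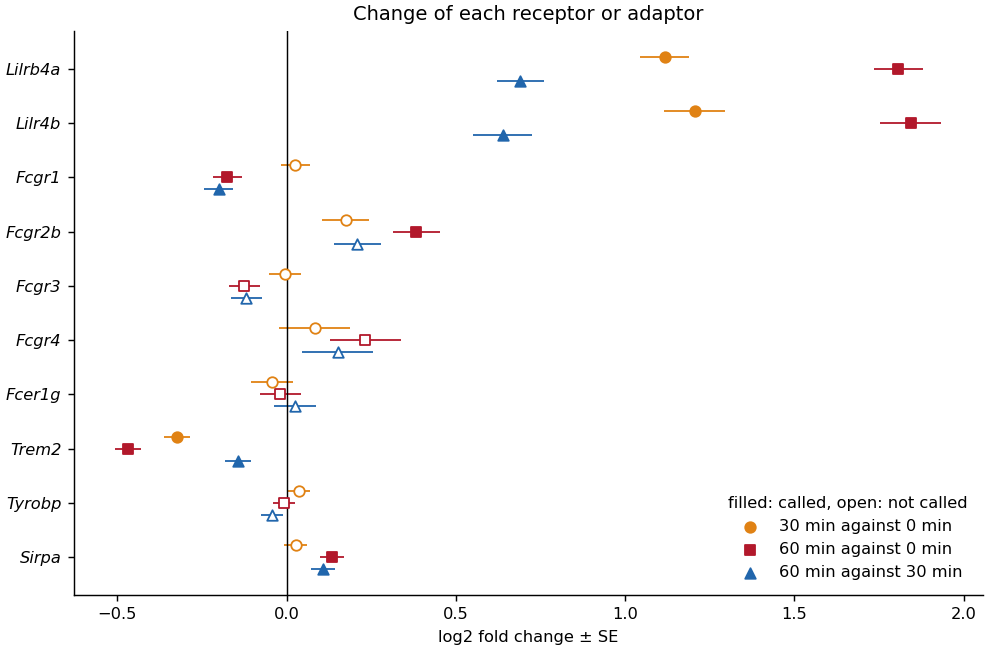
Log2 change of each gene with its standard error, for the 3 comparisons between times, with called changes filled. The LILR pair stands at 1.81 and 1.84 at 60 min against 0 min, far from the other 8 genes, which lie between -0.47 and 0.38.

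Lilrb4a encodes an inhibitory receptor (gp49B) with ITIMs. Its level, in CPM (counts per 1000000 of a scaled library total), was 176, 152 and 183 CPM at 0 min, 414, 339 and 353 CPM at 30 min, and 602, 593 and 589 CPM at 60 min. No library of one time overlapped those of another, and the 60 min libraries lay closest together. The change was 2.17-fold at 30 min against 0 min (log2 1.12 ± 0.07 SE, edgeR adjusted p = 9.62e-08) and 3.50-fold at 60 min against 0 min (log2 1.81 ± 0.07 SE, edgeR adjusted p = 2.35e-10). At 60 min against 30 min it was 1.61-fold (log2 0.69 ± 0.07 SE, edgeR adjusted p = 9.61e-06), so the second step was the smaller one in log2 terms but passed the test on its own.

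Lilr4b encodes gp49A, whose extracellular part is a near copy but whose tail lacks the ITIMs. It had 129, 99.6 and 131 CPM at 0 min, 312, 258 and 261 CPM at 30 min, and 430.2, 438 and 425 CPM at 60 min. The groups did not overlap, and replicate 2 was the lowest of the 0 min libraries for Lilr4b as it was for Lilrb4a. Lilr4b changed 2.31-fold at 30 min against 0 min (log2 1.21 ± 0.09 SE, edgeR adjusted p = 4.56e-07), 3.59-fold at 60 min against 0 min (log2 1.84 ± 0.09 SE, edgeR adjusted p = 1.56e-09), and 1.56-fold at 60 min against 30 min (log2 0.64 ± 0.09 SE, edgeR adjusted p = 0.000133).

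Both genes kept step. The ratio of Lilr4b to Lilrb4a counts was 0.704 ± 0.0414 at 0 min, 0.751 ± 0.0103 at 30 min and 0.725 ± 0.0121 at 60 min (SD, n = 3 each). Summed before the fit, the pair had 290.0 ± 33.9 CPM at 0 min, 645 ± 70.6 CPM at 30 min and 1026 ± 10.1 CPM at 60 min (SD, n = 3 each). The sum changed by log2 1.15 at 30 min against 0 min (edgeR adjusted p = 1.83e-07), by 1.82 at 60 min against 0 min (edgeR adjusted p = 5.33e-10) and by 0.67 at 60 min against 30 min (edgeR adjusted p = 3.15e-05). These values do not depend on how reads were divided within the pair.

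Gm49339, which starts at the Lilr4b end of the locus and shares exons with both genes, followed another course. It had 99.2, 80.3 and 106 CPM at 0 min, 107, 98.9 and 102 CPM at 30 min, and 139.7, 136 and 149 CPM at 60 min. The 30 min and 0 min libraries overlapped and the change did not pass the test (log2 0.11, edgeR adjusted p = 0.45), while at 60 min against 0 min it was 1.49-fold (log2 0.57 ± 0.08 SE, edgeR adjusted p = 5.17e-05). Gm49339 counts relative to the pair were 0.327 ± 0.00894 at 0 min, 0.160 ± 0.0111 at 30 min and 0.138 ± 0.00795 at 60 min (SD, n = 3 each). With Gm49339 added to the sum, the changes were log2 0.96 at 30 min against 0 min (edgeR adjusted p = 1.07e-06) and 1.60 at 60 min against 0 min (edgeR adjusted p = 1.65e-09), a sum chosen after the values were seen. How many of the reads given to Gm49339 came from the pair cannot be read from gene counts. On the minus strand, the annotated antisense gene Gm40645 (chr10:51489530-51522447) overlaps Lilrb4a and had 12 to 18 counts per library at 0 min, 12 to 18 at 30 min and 4 to 10 at 60 min. The kit marks strand, but the strand setting of the counting is not given in the sources used here.

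**Figure D3:**
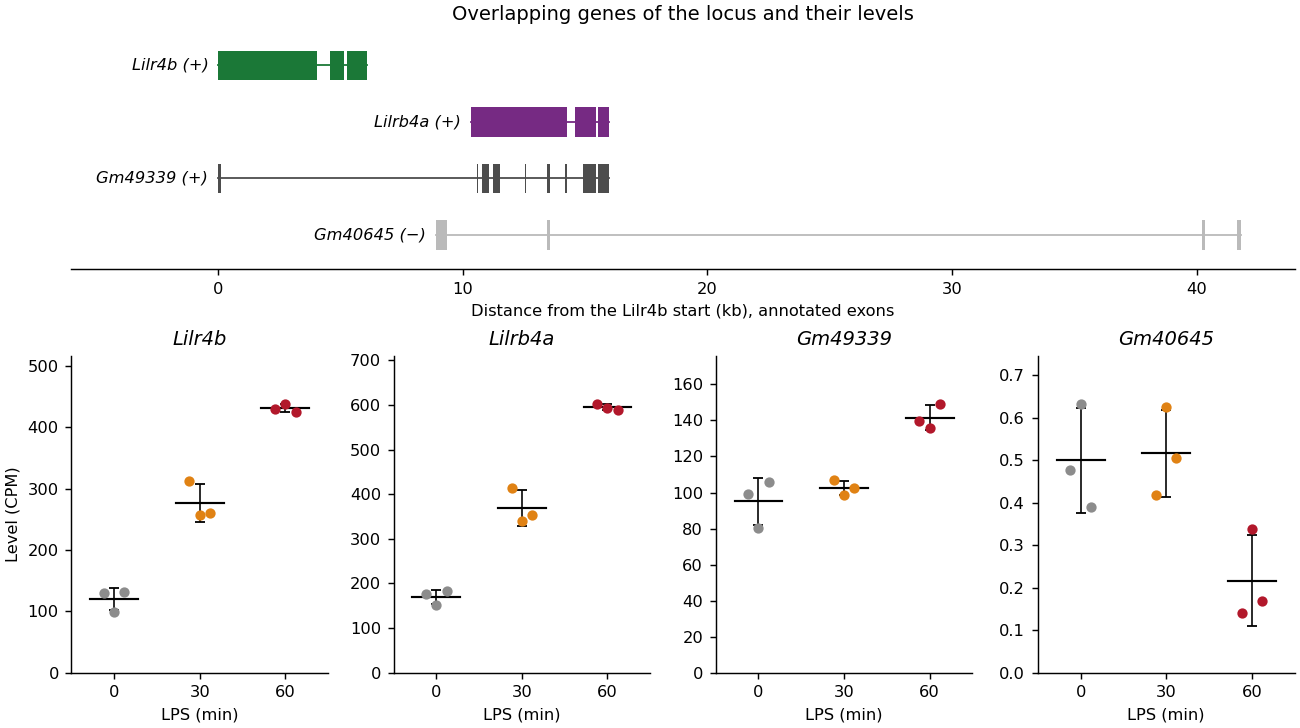
Annotated exons of 4 genes of the LILR locus on mouse chromosome 10, in kb from the Lilr4b start with the strand beside each name (top), and the CPM of each gene in each library at 0, 30 and 60 min with the mean and 1 SD (bottom). Gm49339 spans both receptor genes. At 30 min its libraries lie at 98.9 to 107 CPM and overlap those of 0 min (80.3 to 106 CPM). The 30 min libraries of Lilr4b and Lilrb4a lie above all of theirs at 0 min.

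The promoter of Lilr4b is shown because it lies at the 5′ end of the locus. The 250 bases before its RefSeq start (GRCm38.p6, chr10:51480362-51480611, plus strand) were:
Lilr4b: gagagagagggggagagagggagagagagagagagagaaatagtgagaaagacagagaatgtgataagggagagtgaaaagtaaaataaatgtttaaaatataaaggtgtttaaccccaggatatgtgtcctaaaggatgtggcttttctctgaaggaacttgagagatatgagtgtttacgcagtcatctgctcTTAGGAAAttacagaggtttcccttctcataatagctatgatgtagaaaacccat
The capitals mark a match to TTNCNNAA, read on the minus strand, a C/EBP-type motif, which overlaps a match to GGAA, the core of ETS-type motifs such as that of PU.1. Both strands were searched. Of 32851 RefSeq promoter windows of this length, 36.8% hold TTNCNNAA, 93.4% hold GGAA (Lilr4b has 3), 7.25% hold an NF-kB motif and 6.75% hold the AP-1 motif TGANTCA, and this window holds neither of the last pair. The window ends directly before the annotated start of Gm49339 (chr10:51480612), so it lies before that gene as well. The change of Gm49339 at 30 min against 0 min did not pass the test (log2 0.11). Whether this window acts on Lilr4b, Lilrb4a or Gm49339 was not tested. The RefSeq table was matched for 7 of the 10 genes, all but Lilrb4a, Tyrobp and Sirpa.

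The activating IgG receptors changed little. Fcgr1 (chr3:96282909-96293969, minus strand), the high-affinity receptor, had 97.0, 105 and 102 CPM at 0 min, 99.8, 104 and 105 CPM at 30 min, and 86.8, 94.5 and 87.8 CPM at 60 min. The 60 min libraries lay below all 6 others, which overlapped. Fcgr1 was 1.13-fold lower at 60 min than at 0 min (log2 -0.18 ± 0.04 SE, edgeR adjusted p = 0.00781) and 1.15-fold lower at 60 min than at 30 min (log2 -0.20 ± 0.04 SE, edgeR adjusted p = 0.00474). Its log2 change at 30 min against 0 min was 0.02 (edgeR adjusted p = 0.799).

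Fcgr3, the low-affinity activating receptor, had 133, 124 and 131 CPM at 0 min, 129, 135 and 123 CPM at 30 min, and 119, 113 and 125 CPM at 60 min. The groups overlapped in all 3 comparisons, and none passed the test (log2 -0.12 ± 0.05 SE at 60 min against 0 min, edgeR adjusted p = 0.0669). That comparison passed when libraries were scaled by their totals alone (log2 -0.19, edgeR adjusted p = 0.00745), with no filter on low counts (edgeR adjusted p = 0.0159), without replicate 2 of 0 min (edgeR adjusted p = 0.0389) and without replicate 3 of 60 min (edgeR adjusted p = 0.0210).

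Fcgr4 (chr1:171018920-171029761, plus strand), the activating receptor that binds IgG2 subclasses, was the scarcest of the 10 genes. It had 5.46, 5.41 and 5.09 CPM at 0 min, 5.98, 5.93 and 4.98 CPM at 30 min, and 6.00, 6.78 and 5.97 CPM at 60 min, from 138 to 200 counts a library. The 60 min libraries lay above those of 0 min, but the change did not pass the test (log2 0.23 ± 0.10 SE, edgeR adjusted p = 0.124).

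Fcgr2b is the inhibitory IgG receptor, whose ITIM recruits the lipid phosphatase encoded by Inpp5d. It had 52.1, 40.8 and 51.1 CPM at 0 min, 55.7, 52.6 and 54.2 CPM at 30 min, and 63.2, 60.9 and 63.6 CPM at 60 min. No library of one time overlapped those of another, though the step from 0 to 30 min did not pass the test (log2 0.17 ± 0.07 SE, edgeR adjusted p = 0.166) and replicate 2 of 0 min lay below the other libraries of its time. Fcgr2b rose 1.304-fold at 60 min against 0 min (log2 0.38 ± 0.07 SE, edgeR adjusted p = 0.000938). At 60 min against 30 min its log2 change of 0.21 ± 0.07 SE had an edgeR adjusted p of 0.0558, with 0.00151 to 0.179 as single libraries were left out.

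The summed counts of Fcgr2b and Fcgr3 did not pass the test, with 178 ± 11.1 CPM at 0 min, 183 ± 5.58 CPM at 30 min and 181 ± 7.56 CPM at 60 min (SD, n = 3 each) and a log2 change of 0.03 at 60 min against 0 min (edgeR adjusted p = 0.688). Within the sum, Fcgr2b held 26.9 ± 1.92% at 0 min, 29.6 ± 1.37% at 30 min and 34.5 ± 0.725% at 60 min (SD, n = 3 each). The activating receptors Fcgr1, Fcgr3 and Fcgr4 together, set against Fcgr2b per kilobase of the exons of coding transcripts, gave ratios of 9.05, 11.3 and 9.25 at 0 min, 8.40, 9.27 and 8.43 at 30 min, and 6.70, 6.95 and 6.92 at 60 min. The size of this ratio depends on the length used. Fcgr2b had 12.6 CPM per kilobase at 0 min by this length and 8.29 over the exons of all transcripts. The ratio at 60 min was 0.695 times that at 0 min, and the libraries of these times did not overlap.

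**Figure D4:**
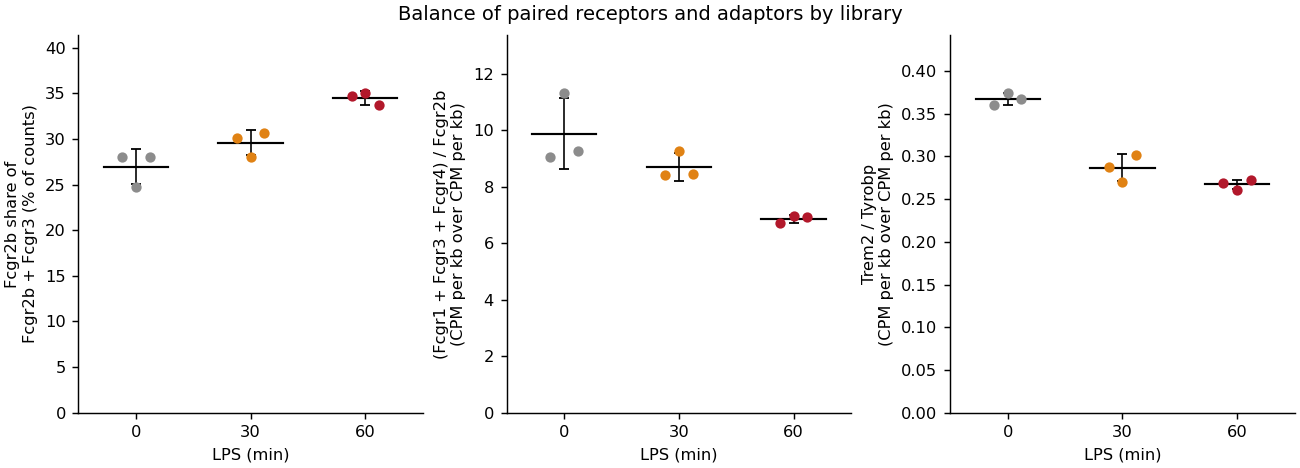
Share of Fcgr2b in the counts of Fcgr2b plus Fcgr3 (left, in percent), ratio of Fcgr1, Fcgr3 and Fcgr4 to Fcgr2b (middle) and ratio of Trem2 to its adaptor Tyrobp (right), in each library at 0, 30 and 60 min with the mean and 1 SD. Both ratios are in CPM per kilobase of the exons of coding transcripts, and their size depends on that length. The share is higher, and both ratios are lower, in every 60 min library than in any 0 min library.

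Neither adaptor passed the test in any comparison. Fcer1g (chr1:171229572-171234365, minus strand), needed for the surface display of Fcgr1, Fcgr3 and Fcgr4, had 303, 268 and 278 CPM at 0 min, 266, 287 and 271 CPM at 30 min, and 259, 269 and 310.1 CPM at 60 min. The groups overlapped throughout, and log2 changes of -0.04, -0.02 and 0.02 did not pass the test (edgeR adjusted p = 0.754 at 30 min and 0.863 at 60 min, both against 0 min, and 0.851 at 60 min against 30 min). Tyrobp (chr7:30413760-30417585, plus strand), the adaptor of Trem2, had 194, 194 and 190.0 CPM at 0 min, 193, 202 and 198 CPM at 30 min, and 189, 194 and 191 CPM at 60 min. Its log2 change at 60 min against 0 min was -0.01 (edgeR adjusted p = 0.894).

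Trem2 (chr17:48346401-48354147, plus strand), a receptor for lipids and lipoproteins that is well known in microglia and in tissue macrophages, fell at both times. It had 134, 139 and 134 CPM at 0 min, 106, 104 and 114 CPM at 30 min, and 97.3, 97.1 and 99.2 CPM at 60 min. The groups did not overlap in any comparison. Trem2 was 1.25-fold lower at 30 min than at 0 min (log2 -0.32 ± 0.04 SE, edgeR adjusted p = 5.61e-05) and 1.38-fold lower at 60 min than at 0 min (log2 -0.47 ± 0.04 SE, edgeR adjusted p = 4.23e-07). At 60 min against 30 min it was 1.11-fold lower (log2 -0.14 ± 0.04 SE, edgeR adjusted p = 0.0188), a call lost without replicate 3 of 30 min, replicate 1 of 60 min or replicate 2 of 60 min (edgeR adjusted p = 0.0969, 0.0678 and 0.0687). Per kilobase of the exons of coding transcripts, Trem2 relative to Tyrobp was 0.367 ± 0.00684 at 0 min, 0.287 ± 0.0158 at 30 min and 0.267 ± 0.00552 at 60 min (SD, n = 3 each), which made the 60 min ratio 0.727 times that at 0 min. The size of the ratio depends on the length used, its relative change does not. At 0 min Trem2 and Tyrobp had 118 and 322 CPM per kilobase by this length, and 27.4 and 289 over the exons of all transcripts. In these bulk libraries, fewer cells that express a gene and less of its RNA per cell cannot be told apart.

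The promoter of Trem2 is shown as that of the gene that fell most among the 10. The 250 bases before its RefSeq start (GRCm38.p6, chr17:48346151-48346400, plus strand) were:
Trem2: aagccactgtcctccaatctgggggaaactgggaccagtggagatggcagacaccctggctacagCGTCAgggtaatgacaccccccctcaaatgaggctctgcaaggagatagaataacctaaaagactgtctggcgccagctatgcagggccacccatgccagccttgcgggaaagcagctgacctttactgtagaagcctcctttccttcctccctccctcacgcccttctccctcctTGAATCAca
The capitals mark a CRE half-site (TGACG, here on the minus strand), held by 17.8% of all promoter windows. They also mark a match to TGANTCA, a loose AP-1-type pattern in which N is any base, held by 6.75% of the windows. The first base of that match lies 9 bases before the start, and its middle base is A. GGAA was found at 4 places in the Trem2 window, and the NF-kB motif and TTNCNNAA at none.

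Sirpa (chr2:129592835-129632228, plus strand), the inhibitory receptor that binds Cd47 on other cells as a signal against being eaten, had the most counts of the 10 genes. It had 947, 926 and 922 CPM at 0 min, 963, 958 and 926 CPM at 30 min, and 999, 1012 and 1056 CPM at 60 min. The 60 min libraries lay above all 6 others, which overlapped. Sirpa rose 1.10-fold at 60 min against 0 min (log2 0.13 ± 0.03 SE, edgeR adjusted p = 0.0113), a call lost when libraries were scaled by their totals alone (log2 0.07, edgeR adjusted p = 0.158). The rise of 1.08-fold at 60 min against 30 min (log2 0.11 ± 0.03 SE, edgeR adjusted p = 0.0493) was lost without any single library other than replicate 2 of 0 min, with edgeR adjusted p of 0.0567 to 0.189 in those 8 fits. The log2 change of Sirpa at 30 min against 0 min was 0.03 (edgeR adjusted p = 0.732).

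The order of the 10 genes by level changed within the hour. Levels are given here as CPM per kilobase of the exons of coding transcripts. At 0 min the order was Fcer1g (379 ± 23.6), Tyrobp (322 ± 3.59), Sirpa (219.7 ± 3.24), Trem2 (118 ± 2.63), Lilrb4a (118 ± 11.3), Fcgr3 (79.6 ± 2.99), Lilr4b (65.4 ± 9.65), Fcgr1 (39.1 ± 1.58), Fcgr2b (12.6 ± 1.65) and Fcgr4 (4.24 ± 0.159; SD, n = 3 each). Of the neighbours in that order, Trem2 and Lilrb4a overlapped. At 30 min Lilrb4a stood in the third place with 257 ± 27.9 and no neighbours overlapped. At 60 min Lilrb4a led with 414 ± 4.57, overlapping Fcer1g at 374 ± 36.2, followed by Tyrobp at 321 ± 4.27. Next came Sirpa at 241 ± 7.05 and Lilr4b at 235 ± 3.53, which overlapped, while Trem2 stood at 85.6 ± 1.01. Some annotated transcripts retain introns, and the order depends on the length used. Over the exons of all transcripts, Lilrb4a had 114 CPM per kilobase at 60 min and the fourth place, and Trem2 had 27.4 at 0 min.

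Genes whose log2 level ran most like that of a called receptor over the 9 libraries are named as a description only, since the 9 points share the 3 times. Genes close to Lilrb4a were Mir155hg, the host gene of miR-155 (Pearson r = 0.999), and the chemokine gene Ccl4 (r = 0.998). Ccl4 changed by log2 2.45 at 60 min against 0 min, so it shared the course and not the size of the change. Genes close to Lilr4b were Traf1, an adaptor of TNF receptors (r = 0.998), and Osgin2 (r = 0.996). Trem2 was closest to Sike1 (r = 0.986), D10Wsu102e (r = 0.984) and Cdc37l1 (r = 0.978), which changed by log2 -0.21, -0.39 and -0.31 at 60 min against 0 min. Fcgr1 was closest to Arid3a (r = 0.978), Gm44620 (r = 0.977) and Psme2b (r = 0.973). Fcgr2b was closest to Mief1 (r = 0.988), Gas7 (r = 0.987) and Cd74, the invariant chain of MHC class II (r = 0.985). Sirpa was closest to Fndc3b (r = 0.987), Cd33 (r = 0.980) and Sh2b2 (r = 0.974).

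The surrounding pathway was read from 7 lists, whose counts at 60 min against 0 min stand beside 13.3% of all genes tested called higher and 11.7% called lower. Of 15 tested other activating receptors and adaptors, 5 rose and 1 fell at 60 min against 0 min, with a median log2 change of 0.22 (0.00 over all genes tested). With no filter on low counts, 2 fell. Clec4e, the receptor Mincle, which signals through Fcer1g, had 29.0 ± 2.29 CPM at 0 min, 249.96 ± 67.3 CPM at 30 min and 483 ± 15.7 CPM at 60 min (SD, n = 3 each), a 16.7-fold change at 60 min against 0 min (log2 4.06 ± 0.15 SE, edgeR adjusted p = 8.8e-11). Trem1, which like Trem2 uses Tyrobp and is named after its values were seen, had 5.28 ± 0.188 CPM at 0 min, 11.3 ± 1.25 CPM at 30 min and 24.1 ± 1.08 CPM at 60 min. It rose 4.57-fold at 60 min against 0 min (log2 2.19 ± 0.09 SE, edgeR adjusted p = 2.13e-10). Cd300lb, another receptor that pairs with Tyrobp, fell by 0.85 on the log2 scale (edgeR adjusted p = 5.15e-07), with 11.9 ± 0.552 CPM at 60 min and 21.5 ± 1.82 CPM at 0 min. At 30 min against 0 min, 2 of the list (Clec4e and Trem1) were higher and 0 lower (4.84% and 3.35% over all genes tested). Before adjustment 3 were lower (p under 0.05), and 0 were called lower by either limma-voom or DESeq2.

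Of 15 tested other inhibitory receptors, 3 rose and 3 fell at 60 min against 0 min (13.3% and 11.7% over all genes tested), with a median log2 change of -0.08. The count of falls was 7 when libraries were scaled by their totals alone and 1 without replicate 1 of 0 min. Pilra, an inhibitory receptor that binds sialylated proteins, rose by log2 0.37 (58.1 ± 2.29 CPM at 60 min, 45.0 ± 5.46 CPM at 0 min; edgeR adjusted p = 0.000937). The lectin receptor Cd22 fell by 0.49 on the log2 scale, with 5.26 ± 0.495 CPM at 60 min and 7.37 ± 0.685 CPM at 0 min (edgeR adjusted p = 0.00589). At 30 min against 0 min, where 4.84% of all genes tested were higher, 1 of the list was, Clec12a (log2 0.25, edgeR adjusted p = 0.0133). That call was lost without replicate 1 of 0 min or replicate 2 of 30 min (edgeR adjusted p = 0.0664 and 0.0646).

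Of the 27 kinases and adaptors that act below ITAM receptors, 7 rose and 4 fell at 60 min against 0 min (13.3% and 11.7% over all genes tested), with a median log2 change of 0.04. The count of rises was 4 when libraries were scaled by their totals alone. Src, a founding tyrosine kinase of its family, had 2.06 ± 0.407 CPM at 60 min and 0.441 ± 0.0655 CPM at 0 min (log2 2.22 ± 0.25 SE, edgeR adjusted p = 1.11e-05). Its level was low, and the alternative filter with a minimum count of 50 left it out. The adaptor Sh3bp2 fell by 0.64 on the log2 scale (39.6 ± 2.80 CPM at 60 min, 61.9 ± 2.91 CPM at 0 min; edgeR adjusted p = 5.25e-06). At 30 min against 0 min edgeR called 0 of the 27 in either direction (4.84% higher and 3.35% lower over all genes tested). Before adjustment 4 were higher and 2 lower (p under 0.05), while DESeq2 called 1 lower and limma-voom 0. Of the 11 phosphatases and adaptors that inhibitory receptors recruit, 2 fell at 60 min against 0 min (11.7% over all genes tested) and 0 rose, with 1 higher before adjustment (p under 0.05) and 0 by either limma-voom or DESeq2. The count of falls was 6 when libraries were scaled by their totals alone. The 2 that fell were Ptpn6, the phosphatase SHP-1 (log2 -0.17, 244 ± 4.09 CPM at 60 min, 274 ± 12.5 CPM at 0 min; edgeR adjusted p = 0.00378), and Ptpn22 (log2 -0.28, edgeR adjusted p = 0.00584). The median log2 change of that list was -0.04. At 30 min against 0 min, 0 of the 11 were called in either direction by edgeR, DESeq2 or limma-voom. Over all genes tested edgeR called 4.84% higher and 3.35% lower at that time. Before adjustment 1 of the 11 was higher and 0 lower (p under 0.05).

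Of 11 tested genes for ligands and cleavage of Trem2 and Sirpa, 2 rose and 1 fell at 60 min against 0 min (13.3% and 11.7% over all genes tested), with a median log2 change of 0.01. The count of falls was 3 when libraries were scaled by their totals alone. Adam17, a protease that sheds surface proteins, Trem2 among them, rose by log2 0.46 (193 ± 5.14 CPM at 60 min, 140.1 ± 4.28 CPM at 0 min; edgeR adjusted p = 3.98e-07). Psen2, a gamma-secretase subunit, rose by log2 0.20 at 60 min against 0 min (edgeR adjusted p = 0.00255). Its call at 30 min against 0 min (log2 0.15, edgeR adjusted p = 0.045) was lost under 13 of the alternatives tried. Calr, a surface eat-me signal when exposed, fell by 0.13 on the log2 scale (edgeR adjusted p = 0.0232), the 1 call of a fall in the list, lost without replicate 1 or 2 of 0 min or replicate 1 or 2 of 60 min (edgeR adjusted p = 0.0590 to 0.0941). Whether Calr acts on Trem2 or Sirpa was not tested. Of 12 other Fc receptors, 5 (Fcer1a, Ms4a2, Fcrl5, Fcamr and Fcmr) had 0 counts in every library and 3 were tested. Trim21, a cytosolic antibody receptor, fell by 0.54 on the log2 scale at 60 min against 0 min (3.35 ± 0.264 CPM at 60 min, 4.88 ± 0.159 CPM at 0 min; edgeR adjusted p = 0.00237).

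Of 15 genes of disease-associated microglia, 3 rose and 1 fell at 60 min against 0 min (13.3% and 11.7% over all genes tested). Their median log2 change was 0.05. Whether each of these genes depends on Trem2 was not tested. The count of falls was 2 when libraries were scaled by their totals alone or with no filter on low counts. Csf1, a growth factor of macrophages, was the 1 gene of the list called at 30 min against 0 min (log2 0.85, edgeR adjusted p = 0.000195). At that time 4.84% of all genes tested were called higher and 3.35% lower. Csf1 had 14.2 ± 0.354 CPM at 0 min, 25.6 ± 4.74 CPM at 30 min and 82.9 ± 8.78 CPM at 60 min, a 5.85-fold rise at 60 min against 0 min (log2 2.55 ± 0.11 SE, edgeR adjusted p = 3.37e-10). Spp1, the secreted protein osteopontin, rose by log2 0.26 (edgeR adjusted p = 2e-05). The protease gene Ctsb rose by log2 0.14 (edgeR adjusted p = 0.00794), a call lost when libraries were scaled by their totals alone (edgeR adjusted p = 0.114). Lpl, lipoprotein lipase, fell by 0.22 on the log2 scale (edgeR adjusted p = 0.00742).

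**Figure D5:**
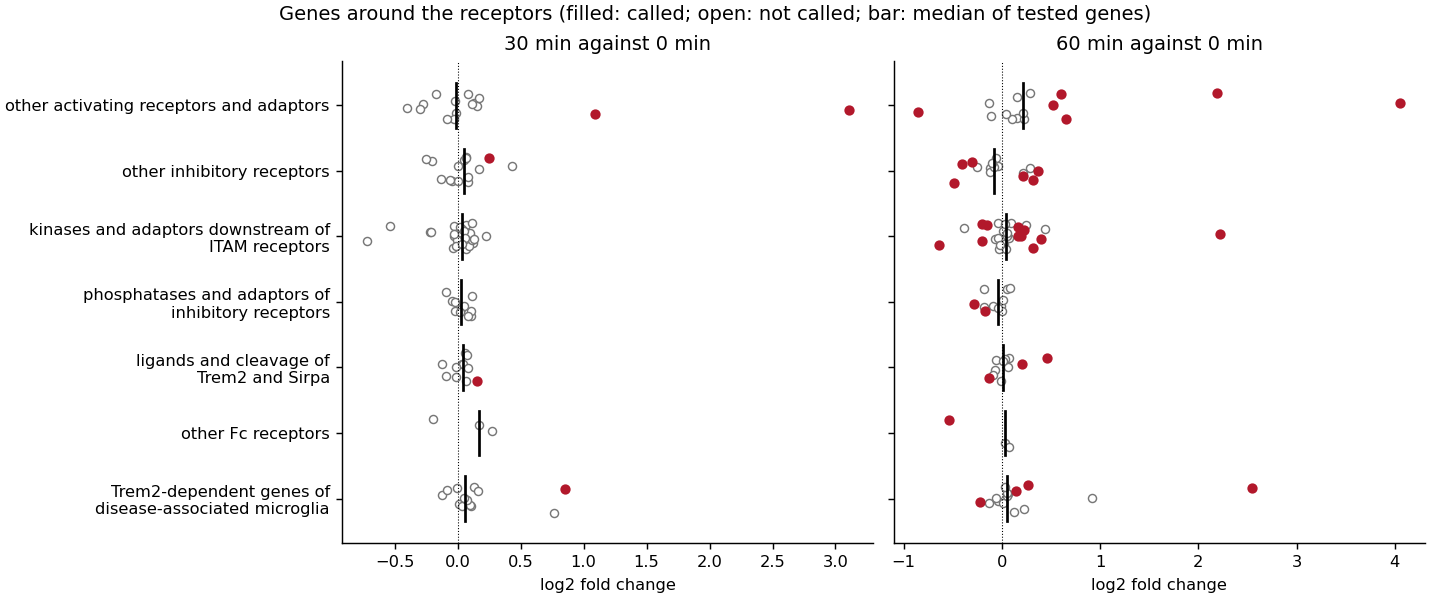
Log2 change of every tested gene of the 7 pathway lists at 30 min against 0 min (left) and 60 min against 0 min (right), with called genes filled and a bar at the median of each list. The medians lie near 0, and at 60 min Clec4e at 4.06, Csf1 at 2.55, Src at 2.22 and Trem1 at 2.19 lie farthest out. The genes of the list labelled Trem2-dependent were not tested for that dependence.

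The line's identity was checked against marker genes. At 0 min the macrophage markers Csf1r (566 CPM), Cd68 (432 CPM), Lyz2 (390 CPM), Itgam (161 CPM) and Adgre1 (128 CPM) were all present, and their sum was 1632 to 1718 CPM at 0 min, 1732 to 1743 CPM at 30 min and 1745 to 1855 CPM at 60 min. Among markers of other cell types, Cd3e and Cd8a of T cells, Ms4a1 of B cells, Ncr1 of NK cells, all 4 mast cell markers, and S100a9 and Ly6g of neutrophils were at 0 in every library. Other genes of the same lists had counts: Lck of the T cell list had 2.71 to 3.77 CPM, Csf3r of the neutrophil list 5.33 to 6.60 CPM, and S100a8 0.136 to 0.281 CPM. The B cell list summed to 0.203 to 0.559 CPM and the NK cell list to at most 0.175 CPM, and of the dendritic cell list Zbtb46 had 6.18 to 8.74 CPM and Batf3 7.40 to 9.19 CPM. The library totals ran from 26867400 to 30402306 counts, so that Fcgr4, the scarcest of the 10 genes, rested on 149 to 157 counts a library at 0 min. When libraries were scaled by totals alone, the share of called genes that were higher was 45.9% at 30 min against 0 min, 30.1% at 60 min against 0 min and 37.5% at 60 min against 30 min, while with TMM factors it was 59.1%, 53.1% and 53.7%. The authors' deposited table of their own DESeq2 comparison lists Lilrb4a at log2 1.11 at 30 min and 1.81 at 60 min, and over the 10 genes its log2 values lay within 0.00544 of those computed here with edgeR.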

How the data were processed

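RNA was sequenced from 9 libraries of IMM cells, 3 each at 0, 30 and 60 min of LPS, made with a stranded total RNA kit that removes ribosomal RNA, per the labels' protocols. The authors deposited expected counts per gene, not normalized. The submitters' processing notes name RSEM 1.3.1, STAR 2.7.0f, cutadapt 1.18, Picard 2.18.26, bcl2fastq 2.20 and DESeq2, on build mm10. Annotation, settings and strand mode: not given in the sources used here. The authors' deposited DESeq2 tables hold, per the file headers, a mean signal, a log2 fold change with its standard error, a test statistic (a score) and p-values before and after adjustment, and are printed only as theirs.

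Expected counts were rounded and tested with edgeR 4.0.16 (R 4.3.3), by its quasi-likelihood test in 1 fit of all 9 libraries with the time as the only term, TMM scaling (factors 0.970 to 1.034) and filterByExpr (a count of about 10), two-sided, with Benjamini-Hochberg adjustment over 14246 of 55450 genes. The SE of a log2 change is its size over the square root of F. CPM use TMM-scaled totals. Values that were not whole made up 5.04% to 5.32% of each library. The fit was tested on simulated counts with known changes. GENCODE M21 (GRCm38) held 55450 of 55450 identifiers. Coordinates are 1-based, coding stretches come from its transcripts and promoters from RefSeq (GRCm38.p6).

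The 10 genes and the lists were chosen with earlier results of these data known. The text names all 10 genes, the 3 most like genes of each called one (some items are not reported here), and of each list the largest called rise and fall at 60 min against 0 min, or every called gene for the lists with 5 or fewer; Trem1 lies outside this rule and was named after its values were seen. Alternatives were DESeq2's size factors, total counts alone, no filter, a minimum count of 50, DESeq2 1.42.0, limma-voom (limma 3.58.1), the replicate number as a block, only the groups compared, and each library left out.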

Additional observations from a re-analysis of the deposited data

Results flagged for a closer look

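For 5 of the 10 genes the change by 60 min differed from the change by 30 min, as tested by 60 min against 30 min. Of the 10 genes, 3 were called higher and 2 lower, where 8.87% and 7.65% of all genes tested were. The later change was the higher one for Lilrb4a (log2 difference 0.69 ± 0.07 SE, edgeR adjusted p = 9.61e-06), Lilr4b (0.64 ± 0.09 SE, edgeR adjusted p = 0.000133) and Sirpa (0.11 ± 0.03 SE, edgeR adjusted p = 0.0493). It was the lower one for Fcgr1 (-0.20 ± 0.04 SE, edgeR adjusted p = 0.00474) and Trem2 (-0.14 ± 0.04 SE, edgeR adjusted p = 0.0188). These 5 were picked by that test. That their 60 min libraries lay apart from those of 30 min therefore adds no support. Fcgr2b, which was not called (edgeR adjusted p = 0.0558), did not overlap between these times either. The call for Sirpa was lost under 12 of the alternatives tried and kept under 5. That for Trem2 was lost under 3 and kept under 14.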

How the results depend on the processing

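Of the called changes of the 10 genes and their sums, 276 of the values recomputed under the alternatives kept direction and call, 16 lost the call and 0 changed sign. The number of the 10 genes called lower at 60 min against 30 min was 2 and ran from 1 to 3 as single libraries were left out, with 1 called without replicate 3 of 30 min, replicate 1 of 60 min or replicate 2 of 60 min. The cause was not tested. The replicate numbers showed no sign of pairing: deviations from the group means correlated at -0.0637 to 0.00609 in same-numbered pairs and at -0.0703 to 0.101 in the others. Such correlations cannot tell how the cultures were made. With the replicate number as a block, 967 genes were called at 30 min against 0 min, 3234 at 60 min against 0 min and 2108 at 60 min against 30 min (1166, 3562 and 2353 without it). Under the block Sirpa was no longer called at 60 min against 30 min (edgeR adjusted p = 0.0983), Fcgr2b was (edgeR adjusted p = 0.0319), and no other call of the 10 genes changed. Of changes that were not called, Fcgr2b at 60 min against 30 min passed under 7 alternatives and at 30 min against 0 min with no filter (edgeR adjusted p = 0.0132), and Fcgr3 passed under 4 at 60 min against 0 min and under 2 at 60 min against 30 min.

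Sign changes were seen only among uncalled changes, all close to 0 on the log2 scale. With total counts alone they were Fcer1g at 60 min against 30 min (-0.019), Fcgr1 at 30 min against 0 min (-0.0017), the sum of Fcgr2b and Fcgr3 at 60 min against 0 min (-0.038) and Sirpa at 30 min against 0 min (-0.00023). As single libraries were left out, log2 changes of Fcer1g ran from -0.080 to 0.0077 at 30 min against 0 min, from -0.107 to 0.031 at 60 min against 0 min and from -0.057 to 0.077 at 60 min against 30 min. At 30 min against 0 min they ran from -0.0055 to 0.052 for Fcgr1 and from -0.039 to 0.029 for Fcgr3. For the sum of Fcgr2b and Fcgr3 they ran from -0.0057 to 0.077 at 30 min against 0 min, from -0.020 to 0.062 at 60 min against 0 min and from -0.043 to 0.016 at 60 min against 30 min. With 3 libraries a time, changes near 0 have no settled direction.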

Other observations

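Of 59 tested genes within 100 kb of the 10 receptors and adaptors, and not among them, 8 (13.6%) were called higher and 15 (25.4%) lower at 60 min against 0 min, where 13.3% and 11.7% of all genes tested were. Of the 15 lower genes, 10 lay among the 22 tested neighbours of Fcgr1, which itself was 1.13-fold lower at 60 min than at 0 min (edgeR adjusted p = 0.00781). Of these 10, 7 are histone genes (Hist2h2ac, Hist2h2be, Hist2h3c2, Hist2h3c1, Hist2h4, Hist2h3b and Hist2h2bb), near copies between which reads may have been split. Among the 6 tested neighbours of Tyrobp, 3 were higher. One of them, named after its value was seen, is Nfkbid, a nuclear regulator of NF-kB, with a log2 change of 0.96 at 30 min and 1.77 at 60 min against 0 min (edgeR adjusted p = 8.69e-07 and 3.37e-10), beside an uncalled Tyrobp. Among the 4 of the LILR pair 1 was higher and 1 lower. Neighbours were taken by distance alone, and nearby genes are not independent of each other. Among markers of other cell types, 2 of 3 tested dendritic cell markers were lower at 60 min against 0 min (11.7% over all genes tested). They were Zbtb46 (log2 -0.31, edgeR adjusted p = 0.0170) and Xcr1 (edgeR adjusted p = 0.0434). Xcr1 had only 5 to 16 counts a library at 0 min and 1 to 7 at 60 min, and these groups overlapped. The dendritic cell markers had a summed level of 13.8 to 15.6 CPM at 60 min and 16.5 to 17.6 CPM at 0 min. Their part in the changes of the receptors was not tested.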
